A study of Homo sapiens with 15 samples.

Results

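The AP-1 genes described here are the 4 FOS genes (FOS, FOSB, FOSL1 and FOSL2) and the 3 JUN genes (JUN, JUNB and JUND), chosen by name as 7 of the 58219 genes in the table of read counts. They were measured in BEAS-2B, a line of human bronchial epithelial cells immortalized with viral genes, so every condition stands for the same cell line and not for separate donors. RNA was sequenced from 15 libraries in 5 conditions of 3 independent experiments each. The 24-h conditions were vehicle control (medium alone), 1 µg/cm2 and 30 µg/cm2 of PM2.5, the fine particulate matter that the study extracted with water from outdoor air filters. The 7-d conditions were vehicle control and 1 µg/cm2 of PM2.5 given daily, with a wash between exposures and a lower plating density than at 24 h. All cells grew in serum-free bronchial epithelial medium with added growth factors on collagen-coated plates.

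AP-1 is a transcription factor made of paired proteins. FOS proteins cannot pair with each other and bind DNA together with a JUN protein, whereas JUN proteins can also pair among themselves. Growth factor and stress signals that run through the MAP kinases raise transcription of these genes and modify their proteins. FOS and FOSB are classic immediate early genes with short-lived mRNA, FOSL1 and FOSL2 encode FRA1 and FRA2, which lack the strong activation domain of FOS, and JUND is generally made at a steadier level than JUN and JUNB. In airway epithelium AP-1 is known for acting on genes of cytokines, matrix proteases and squamous differentiation.

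The genes lie on 5 chromosomes of GRCh38, with 3 of them on chromosome 19. FOS (ENSG00000170345.9) lies at chr14:75278774-75282230 on the plus strand, FOSB (ENSG00000125740.13) at chr19:45467995-45475179 on the plus strand, FOSL1 (ENSG00000175592.8) at chr11:65892049-65900573 on the minus strand and FOSL2 (ENSG00000075426.11) at chr2:28392448-28417312 on the plus strand. JUN (ENSG00000177606.6) lies at chr1:58780788-58784327 on the minus strand, JUNB (ENSG00000171223.5) at chr19:12791496-12793315 on the plus strand and JUND (ENSG00000130522.5) at chr19:18279760-18281622 on the minus strand. The exons of JUNB share 259 bases with exons of HOOK2 on the other strand, and the strand used in counting is not given in the sources used here, so reads of this stretch cannot be told apart.

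Promoter sequence is shown for the 6 genes that RefSeq's promoter table (GRCh38.p14) held, because CREB and ATF proteins, some of which pair with JUN, bind letters of the kind capitalized here. Capitals mark TGACGT on either strand (read as ACGTCA from the other) or, in JUN, TGACATCA. All windows lie before the start that RefSeq gives and are written 5′ to 3′ on the gene's own strand. Those of FOSL2 and JUN fall inside the gene as the count table bounds it, since its start lies farther upstream.
FOS, chr14:75278654-75278773, plus strand: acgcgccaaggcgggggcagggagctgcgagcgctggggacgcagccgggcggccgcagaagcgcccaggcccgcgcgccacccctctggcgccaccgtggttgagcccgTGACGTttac
FOSB, chr19:45467875-45467994, plus strand: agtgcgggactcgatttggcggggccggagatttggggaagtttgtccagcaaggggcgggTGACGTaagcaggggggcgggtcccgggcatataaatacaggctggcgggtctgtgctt
FOSL2, chr2:28392780-28392809, plus strand: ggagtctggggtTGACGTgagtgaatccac
JUN, chr1:58784096-58784125, minus strand: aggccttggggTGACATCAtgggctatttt
JUNB, chr19:12791366-12791485, plus strand: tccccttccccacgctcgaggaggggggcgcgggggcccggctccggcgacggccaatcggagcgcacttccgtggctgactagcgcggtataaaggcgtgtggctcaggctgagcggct
JUND, chr19:18281623-18281742, minus strand: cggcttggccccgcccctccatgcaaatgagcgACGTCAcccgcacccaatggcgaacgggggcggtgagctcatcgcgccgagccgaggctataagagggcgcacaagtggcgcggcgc

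In the 250 bases before the RefSeq start, searched on both strands, TGACGT was found in FOS (64 to 59 bases before the start), FOSB (60 to 55), FOSL2 (66 to 61) and JUND. JUND held it 87 to 82 bases before the start and also on both strands of a TGACGTCA at 200 to 193, so these matches overlap. TGACATCA was found in JUN, at 67 to 60 bases before the start, and none of these motifs was found in the window of JUNB. Of 35116 promoters searched over the same length, 7.1% held TGACGT, 2.37% TGACATCA and 1.65% TGACGTCA. TGACTCA, the site that FOS and JUN pairs are best known for binding (4.2% of promoters), and the CArG box bound by SRF (1.16%) were not found in these 6 windows. Sequence farther upstream than these 250 bases was not searched, so the genes may hold such sites there. The motifs were chosen after the sequences had been seen.

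Between 21460981 and 34724765 reads were counted per library, and 3 counts equalled 0.0864 to 0.140 CPM (counts scaled to the size of the library). All 7 AP-1 genes were among the 17599 genes that passed the filter on low counts. FOSB, the lowest, was above the filter's 0.342 CPM in all 9 libraries of the 24-h conditions, so it did not pass through a single condition. At 24 h, the libraries of experiment 2 differed from those of experiments 1 and 3 by a chi-square of 68.6 to 161 per degree of freedom over genes. Between experiments 1 and 3 it was 4.11 to 16.4. For the AP-1 genes, results are given without experiment 2 where this changes a call or a count, and for other genes only in part. At 7 d, the exposed library of experiment 3 differed from the other exposed libraries by 17.9 and 23.1 on the same measure, against 4.37 between those and 4.04 to 4.74 among the 7-d controls. All 8 epithelial markers were above 1 CPM in every library. Their summed level was 967 to 1383 CPM after 30 µg/cm2 and 1984 to 2496 CPM in the 24-h controls. Of 6 leukocyte markers, CD14 was the only one above 1 CPM in all libraries of a group, PTPRC was at 0 in 4 of the 5 groups, and the 4 endothelial markers summed to at most 0.425 CPM. The 7 mesenchymal markers, all above 1 CPM, summed to 361 to 589 CPM after 30 µg/cm2 and 500 to 800 CPM in controls. At 30 µg/cm2, 3 epithelial markers were called lower (KRT5, KRT8 and CDH1), and of the mesenchymal markers ACTA2 was called higher and PDGFRB lower. Without experiment 2, CDH1 was not called (log2 fold-change -0.57), and KRT18 (-0.75), CD14 (-2.23), VIM (-0.63) and COL1A1 (-0.64) were called lower. In bulk RNA, fewer cells of a type and less RNA per cell cannot be told apart. The part of these marker differences in the results below was not tested.

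Per base of exon, JUND was the most abundant AP-1 gene in unexposed cells and FOSB the least. In the 24-h controls the mean FPKM (CPM per kilobase of exon) was 28.6 ± 1.9 (SD, n = 3) for JUND, 14.3 ± 8.4 for FOSL1, 13.6 ± 2.8 for FOSL2, 13.3 ± 7.2 for JUN, 11.4 ± 0.4 for JUNB, 1.59 ± 0.20 for FOS and 0.131 ± 0.004 for FOSB. The ranges of FOSL1, FOSL2, JUN and JUNB overlapped, so their order was not resolved, whereas JUND lay above all of them and FOS and FOSB below in each library. In the 7-d controls the order was JUND (21.6 ± 2.7), JUNB (14.4 ± 0.8), FOSL2 (13.5 ± 0.4), JUN (7.51 ± 0.77), FOSL1 (4.19 ± 0.32), FOS (2.46 ± 0.36) and FOSB (0.0794 ± 0.0238), with JUNB and FOSL2 as the only neighbours whose ranges overlapped. After 30 µg/cm2 FOSL1, at 62.2 ± 15.2 FPKM, had passed JUND, at 31.0 ± 11.6, and lay above every other AP-1 gene in all 3 libraries. In experiment 2, however, FOSL1 and JUND were nearly equal, at 44.7 and 43.9 FPKM.

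**Figure D1:**
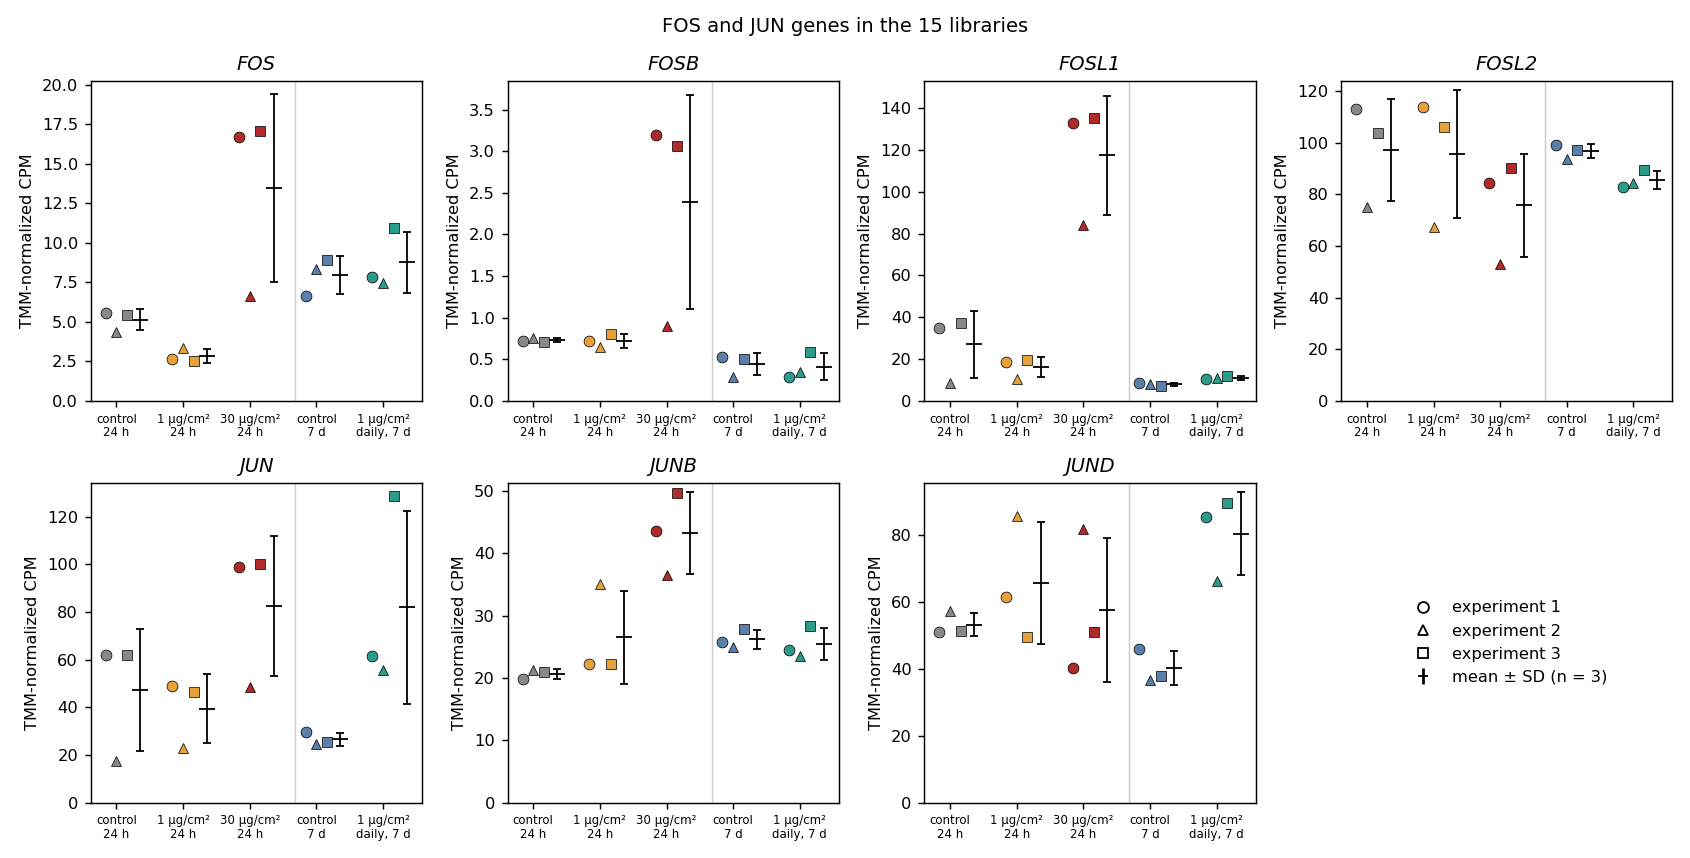
CPM of the 7 AP-1 genes (y axis, linear, scaled per gene) in each library, by condition (x axis), with experiments 1, 2 and 3 as circles, triangles and squares and the mean ± SD of 3 libraries beside them. FOSL1 stood at 84.3 to 135 CPM after 30 µg/cm2 and at 37.4 CPM or less in every other library, while JUN and JUND were above their controls in all 3 libraries at 7 d.

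The comparison of 30 µg/cm2 of PM2.5 with vehicle at 24 h asked which genes respond to a single high exposure. FOSL1, FOSB, FOS and JUNB rose, by 4.34-, 3.26-, 2.61- and 2.09-fold, while FOSL2, JUN and JUND did not pass the test. These 4 of 7 genes passed both limits set for a call, an adjusted p under 0.05 and a log2 fold-change of 0.6 or more in either direction, where 8.07% of all tested genes were called and 3.82% were called higher. No overlap between exposed and control libraries was found for 11.7% of all genes in the higher and 11.1% in the lower direction. The rises thus covered 3 of the 4 FOS genes and 1 of the 3 JUN genes. The median log2 fold-change of the 7 genes was 1.06, against 0.03 over all genes.

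FOSL1, whose product FRA1 is an AP-1 partner found in migrating and squamous epithelial cells, moved most. Its level in experiments 1, 2 and 3 was 34.8, 8.76 and 37.4 CPM in controls and 133, 84.3 and 135 CPM after 30 µg/cm2. Every exposed library lay above every control, although the control of experiment 2 was far below the other controls. The log2 fold-change was 2.12 ± 0.40 (SE; edgeR quasi-likelihood test, Benjamini-Hochberg adjusted p = 0.00405), and within experiments 1, 2 and 3 the log2 ratio was 1.93, 3.27 and 1.85.

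JUNB, a JUN protein that often tempers JUN, gave the smallest of the 4 rises but the one with the narrowest spread. Control levels were 19.8, 21.3 and 20.97 CPM, and exposed levels 43.6, 36.5 and 49.7 CPM. The groups were clearly apart in each experiment, with a log2 fold-change of 1.06 ± 0.17 (edgeR adjusted p = 0.0016). HOOK2, which shares exon bases with JUNB, did not move with it, at a log2 fold-change of -0.44 ± 0.19 (edgeR adjusted p = 0.174).

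FOS and FOSB, the immediate early members, were higher in all 3 exposed libraries but much less so in experiment 2. FOS stood at 5.57, 4.38 and 5.46 CPM in controls and at 16.7, 6.62 and 17.1 CPM after 30 µg/cm2, a log2 fold-change of 1.38 ± 0.30 (edgeR adjusted p = 0.00943). FOSB stood at 0.723, 0.753 and 0.709 CPM in controls, from 16 to 24 counts per library, and at 3.19, 0.902 and 3.06 CPM after exposure, from 26 to 97 counts. Its log2 fold-change was 1.70 ± 0.42 (edgeR adjusted p = 0.0199). In experiment 2 the log2 ratio was 0.60 for FOS and 0.26 for FOSB, against 1.58 to 2.14 for both genes in the other experiments. FOS was no longer called without the exposed library of experiment 1 or 3 (edgeR adjusted p = 0.0517 and 0.0515), and FOSB without those libraries or the control of experiment 1 or 3 (edgeR adjusted p = 0.0642 to 0.103).

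JUN, which can switch on its own promoter, was higher within each experiment but differed widely between experiments. Its controls stood at 61.8, 17.7 and 62.1 CPM and its exposed libraries at 98.8, 48.4 and 100.3 CPM. The exposed library of experiment 2 thus lay below the controls of the other experiments, and JUN was not called (log2 fold-change 0.80 ± 0.46, edgeR adjusted p = 0.316). With the experiment number as a block, the log2 fold-change was 0.91 ± 0.21 (edgeR adjusted p = 0.00619) and JUN was called, making 5 of 7 AP-1 genes where 15.2% of all genes were called. The within-experiment log2 ratios were 0.68, 1.46 and 0.69.

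FOSL2, which encodes FRA2, and JUND were not called. FOSL2 stood at 113, 75.0 and 104 CPM in controls and 84.5, 53.0 and 90.03 CPM after 30 µg/cm2, a log2 fold-change of -0.36 ± 0.22 (edgeR adjusted p = 0.358). It was lower within every experiment, and with the block the log2 fold-change was -0.37 ± 0.08 at an edgeR adjusted p of 0.00423, short of the 0.6 set for a call. JUND stood at 51.0, 57.3 and 51.5 CPM in controls and 40.3, 81.8 and 51.2 CPM after exposure. Its log2 fold-change was 0.12 ± 0.24 (edgeR adjusted p = 0.826), and without experiment 2 it was -0.18 ± 0.15.

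Without experiment 2, FOS, FOSB, FOSL1, JUNB and JUN were called higher where 19.3% of all genes were called, with log2 fold-changes of 1.60, 2.11, 1.88, 1.18 and 0.68. When the spread was taken from the 6 libraries compared and not from all 15, JUNB alone was called (edgeR adjusted p = 0.0292), and FOSL1 (0.0859), FOS (0.116) and FOSB (0.141) were not. That fit called 344 of 17599 genes.

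**Figure D2:**
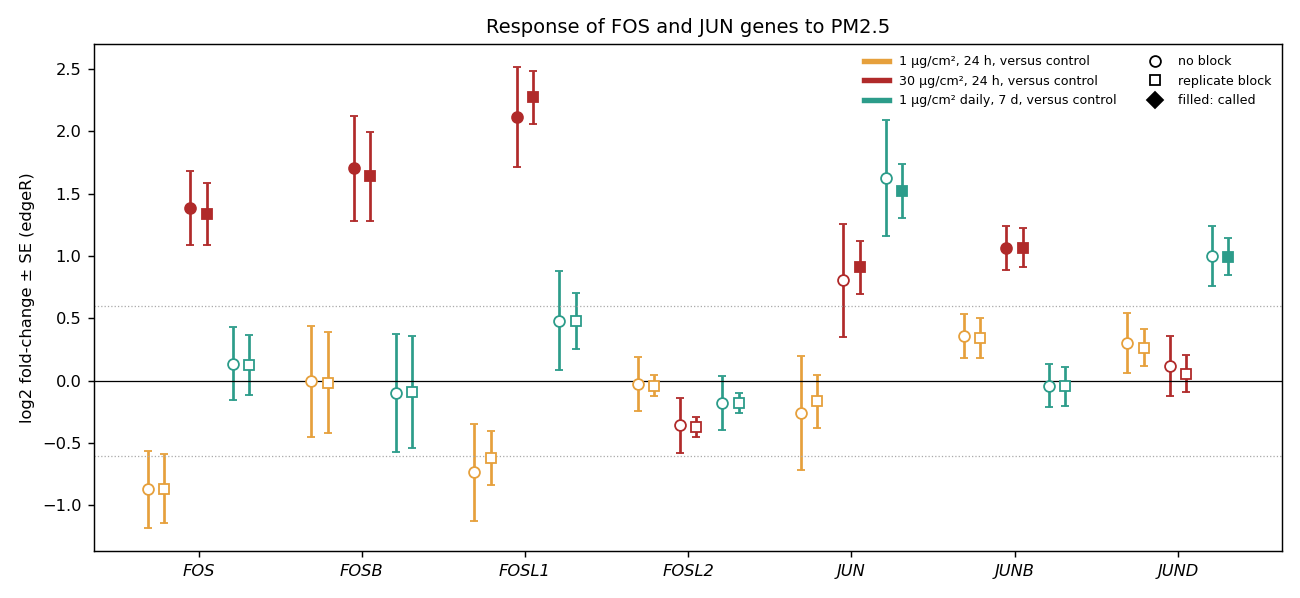
Log2 fold-change ± SE (y axis) of each AP-1 gene (x axis) after 1 µg/cm2 at 24 h, 30 µg/cm2 at 24 h and 1 µg/cm2 daily for 7 d, each against its own control, without (circles) and with (squares) the experiment number as a block. Filled symbols were called, and dotted lines mark a log2 fold-change of 0.6 in either direction. FOSL1, FOSB, FOS and JUNB are filled for 30 µg/cm2 in both fits, and JUN and JUND are filled at 7 d in the blocked fit only.

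The make-up of each family shifted at 30 µg/cm2. FOSL1 made up 80.6 ± 1.5% (SD, n = 3) of the summed FPKM of the FOS genes, against 44.7 ± 14.6% in the 24-h controls, where it ranged from 27.9% to 54.9%. The share of FOSL2 was 49.0 ± 12.4% in controls and 13.7 ± 0.3% after exposure, and FOS and FOSB together held a small share in both groups. The 3 exposed libraries gave nearly the same FOSL1 share, 79.6% to 82.3%, although their FOSL1 levels differed. Among the JUN genes, JUND held 54.2 ± 9.2% in controls and 39.7 ± 14.7% after 30 µg/cm2, with overlapping ranges. The summed FPKM was 29.6 ± 11.2 in controls and 77.4 ± 20.0 after exposure for the FOS genes, and 53.3 ± 5.1 and 78.1 ± 4.8 for the JUN genes, and neither pair of groups overlapped. These shares describe mRNA only and were not tested.

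**Figure D3:**
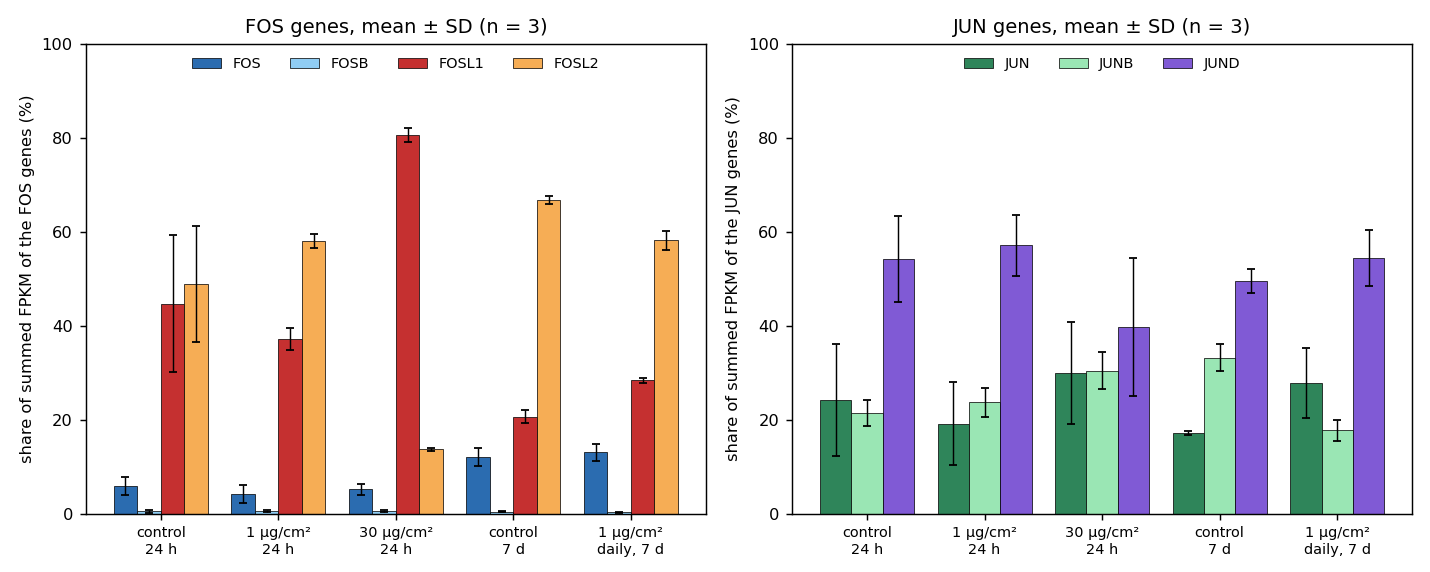
Share of each gene in the summed FPKM (y axis, percent, bars from 0) of the FOS genes (left) and the JUN genes (right) by condition (x axis), as the mean ± SD of 3 libraries. FOSL1 made up 80.6% of the FOS genes after 30 µg/cm2 and 20.7% to 44.7% in the other conditions.

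A single exposure to 1 µg/cm2 was compared with the same 24-h controls to ask what a low dose does. None of the 7 AP-1 genes was called by edgeR or DESeq2, where edgeR called 0.0625% of all genes (0.0455% higher and 0.017% lower), and at an unadjusted p under 0.05 FOS was the only member. FOS stood at 2.62, 3.32 and 2.53 CPM in experiments 1, 2 and 3, below all 3 controls, with a log2 fold-change of -0.87 ± 0.31 (unadjusted p = 0.0137, edgeR adjusted p = 1). FOS was in this way on the other side of the controls from its level at 30 µg/cm2. Groups without overlap in the lower direction were found for 2.13% of all genes. JUNB stood at 22.3, 35.1 and 22.2 CPM, above all controls, with a log2 fold-change of 0.36 ± 0.17 (edgeR adjusted p = 1), and 2.31% of all genes were without overlap in the higher direction.

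FOSL1 and JUN went opposite ways in different experiments at 1 µg/cm2. FOSL1 stood at 18.5, 10.7 and 19.5 CPM, which is a log2 ratio of -0.92, 0.29 and -0.94 to the control of the same experiment. JUN stood at 48.8, 22.9 and 46.6 CPM, a log2 ratio of -0.34, 0.38 and -0.41. Both genes were lower than control in experiments 1 and 3 and higher in experiment 2. Without experiment 2, FOS (log2 fold-change -1.09 ± 0.20, edgeR adjusted p = 0.00428) and FOSL1 (-0.92 ± 0.10, edgeR adjusted p = 2.57e-05) were called lower, from 2 libraries a group and where 2.15% of all genes were called. JUN was not called there (-0.36 ± 0.26, edgeR adjusted p = 0.462). FOSB, FOSL2 and JUND were not called in any of these fits, and with the block no AP-1 gene was called where 0.42% of all genes were.

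Compared directly, 30 µg/cm2 and 1 µg/cm2 differed in the same 4 genes. FOSL1 was 7.22-fold higher at 30 µg/cm2 (log2 fold-change 2.85 ± 0.41, edgeR adjusted p = 0.000824), FOS 4.78-fold (2.26 ± 0.31, 0.000637), FOSB 3.26-fold (1.71 ± 0.42, 0.0207) and JUNB 1.63-fold (0.71 ± 0.17, 0.0193). These 4 of 7 genes were called where 7.84% of all genes were called and 3.62% were called higher. JUN was not called (1.06 ± 0.46, edgeR adjusted p = 0.167), but its log2 ratio was 1.02, 1.08 and 1.11 in experiments 1, 2 and 3, and with the block it was called (1.07 ± 0.21, edgeR adjusted p = 0.00223), as were 15.6% of all genes. Without experiment 2, FOS, FOSB, FOSL1, JUN and JUNB were called where 17.6% of all genes were called. The same pattern of close values in each experiment held for FOSL1, at 2.85, 2.98 and 2.79. FOS reached a log2 ratio of 1.00 in experiment 2 and 2.67 and 2.75 in the others. In experiments 1, 2 and 3 the log2 ratio was 2.16, 0.48 and 1.92 for FOSB and 0.97, 0.06 and 1.16 for JUNB. JUNB was thus nearly level between the doses in experiment 2, at 36.55 CPM after 30 µg/cm2 and 35.15 CPM after 1 µg/cm2. FOSB and JUNB were no longer called without the 1 µg/cm2 or 30 µg/cm2 library of experiment 1 or 3 (edgeR adjusted p = 0.0541 to 0.105 for FOSB and 0.0663 to 0.0998 for JUNB). With the spread of the 6 libraries alone FOSL1 was the only member called (edgeR adjusted p = 0.031), where 123 of 17599 genes were called.

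Daily exposure to 1 µg/cm2 for 7 d was compared with its own controls to ask what repetition of a low dose does. The members with the largest differences here were JUN and JUND, neither of which was called at 30 µg/cm2 without the block. JUN stood at 29.6, 24.5 and 25.6 CPM in the 7-d controls and at 61.4, 55.7 and 129 CPM after daily exposure. JUND stood at 46.1, 36.8 and 38.0 CPM in controls and at 85.4, 66.4 and 89.7 CPM after exposure. For both genes all exposed libraries lay above all controls, as did 21.3% of tested genes, and the exposed JUN value of experiment 3 was far above the other exposed libraries. Without that library, which stood apart over all genes, the log2 fold-change was 1.15 ± 0.46 for JUN and 0.93 ± 0.27 for JUND (edgeR adjusted p = 0.531 and 0.356).

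In the edgeR fit without a block, none of the 7 AP-1 genes was called at 7 d, where 0.227% of all genes were called, and JUN and JUND were the members with an unadjusted p under 0.05. The log2 fold-change was 1.62 ± 0.46 for JUN (edgeR adjusted p = 0.17) and 1.00 ± 0.24 for JUND (edgeR adjusted p = 0.113). With the experiment number as a block, JUN (1.52 ± 0.22, edgeR adjusted p = 0.00303) and JUND (0.99 ± 0.15, edgeR adjusted p = 0.00339) were called higher, 2 of 7 genes where 4.39% of all genes were called. Both were also called (edgeR adjusted p = 0.00171 and 0.000365) with the spread taken from the 6 libraries of the 7-d protocol alone. That fit called 1044 of 17599 genes. DESeq2 called both as well, among 250 genes. The within-experiment log2 ratios were 1.05, 1.19 and 2.33 for JUN and 0.89, 0.85 and 1.24 for JUND.

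The FOS genes showed smaller differences at 7 d. FOSL1 stood at 8.51, 7.87 and 7.31 CPM in controls and 10.2, 10.9 and 11.9 CPM after daily exposure, without overlap, and was not called (log2 fold-change 0.48 ± 0.40, edgeR adjusted p = 0.684). FOSL2 stood at 99.2, 93.7 and 97.2 CPM in controls and 82.9, 84.5 and 89.2 CPM after exposure, lower in all exposed libraries (as 21.6% of tested genes were) and not called (-0.18 ± 0.22, edgeR adjusted p = 0.802). FOS, at 6.65 to 8.91 CPM in controls and 7.48 to 10.9 CPM after exposure, and FOSB, at 0.289 to 0.532 and 0.292 to 0.593 CPM, overlapped between the groups. JUNB overlapped as well, at 24.9 to 27.9 CPM in controls and 23.6 to 28.4 CPM after exposure. The summed FPKM of the FOS genes was 20.2 ± 0.3 in controls and 20.6 ± 1.5 after exposure, whereas that of the JUN genes was 43.6 ± 3.5 and 80.4 ± 18.2. JUNB held 33.2 ± 2.9% of the JUN sum in controls and 17.8 ± 2.3% after exposure.

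**Figure D4:**
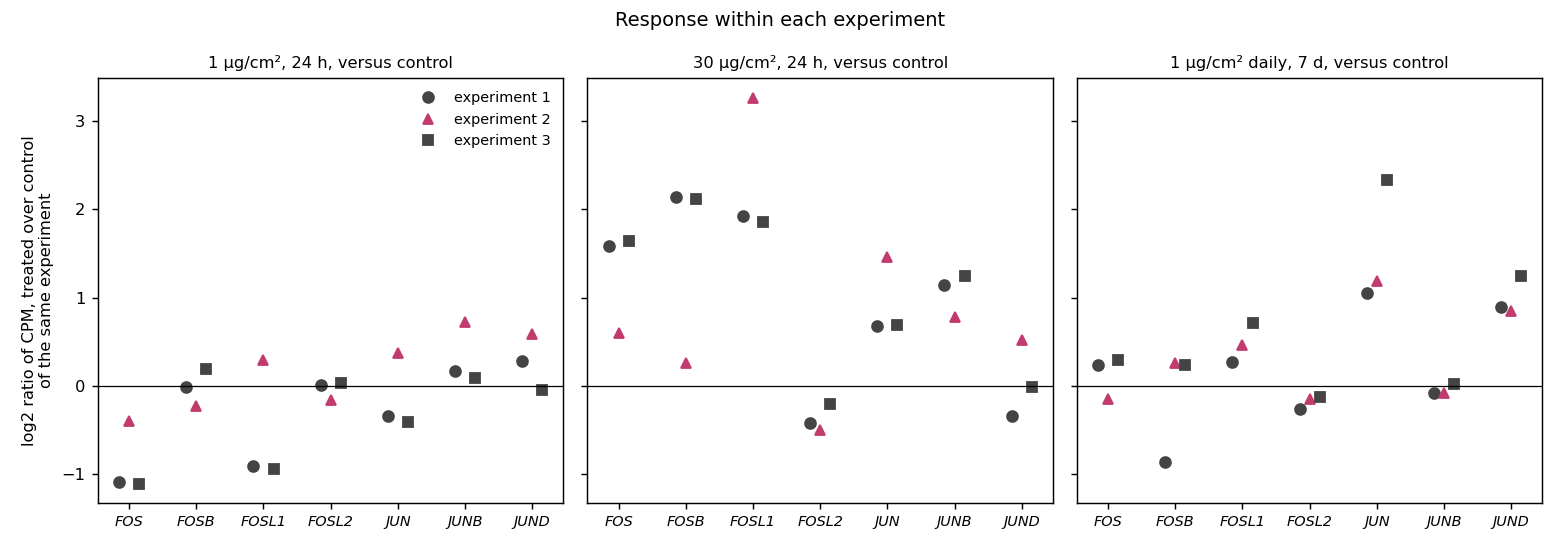
Log2 ratio of CPM between exposed and control library of the same experiment (y axis) for each AP-1 gene (x axis), with 1 panel per exposure and experiment 2 as triangles. At 30 µg/cm2 experiment 2 lies below the other experiments for FOS and FOSB and above them for FOSL1 and JUN, while at 7 d JUN and JUND are above 0 in all 3 experiments.

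The response at 7 d was set against the response to 1 µg/cm2 at 24 h, each relative to its own control, in a test of the difference itself. None of the 7 AP-1 genes was called, where 0% of all genes were called in the same fit and 1245 of 17599 genes had an unadjusted p under 0.05. DESeq2 called 75 genes and no AP-1 gene. The largest difference was that of JUN, 1.88 ± 0.65 on the log2 scale (edgeR adjusted p = 0.55). With the block it was 1.69 ± 0.30 (edgeR adjusted p = 0.044) and JUN was called, where 1.03% of all genes were called. Without 24-h experiment 2, 4 AP-1 genes were called, JUN (1.99), FOSL1 (1.401), FOS (1.22) and JUND (0.87), where 10% of all genes were called.

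The controls of both protocols differed in AP-1 genes as well, and here plating density, time and medium changes cannot be told apart. FOSL1 was lower in the 7-d controls than in the 24-h controls, by a log2 fold-change of -1.78 ± 0.40 (edgeR adjusted p = 0.00506), and was the only AP-1 gene called where 21.9% of all genes were called (11.1% higher and 10.8% lower). FOS, at 6.65 to 8.91 CPM against 4.38 to 5.57 CPM, was higher in every 7-d control, as were 27.6% of all genes, without being called (0.63 ± 0.30, edgeR adjusted p = 0.129). The same held for JUNB, at 24.9 to 27.9 CPM against 19.8 to 21.3 CPM (0.34 ± 0.17, edgeR adjusted p = 0.155). JUN was not called (-0.83 ± 0.46, edgeR adjusted p = 0.193), but was called without the 24-h control of experiment 2 (-1.22 ± 0.39, edgeR adjusted p = 0.0344). Without all 24-h libraries of experiment 2, FOSL1 and JUN were called lower where 31.3% of all genes were called. FOSB (0.289 to 0.532 CPM) and JUND (36.8 to 46.1 CPM) were below every 24-h control, as 24.7% of all genes were, and were not called. FOSL1 at 7 d was thus at 11.9 CPM or less even in exposed cells, below the 24-h controls of experiments 1 and 3.

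Genes that work with, upstream or downstream of AP-1 were taken from 7 lists. Their counts at 30 µg/cm2 stand against 8.07% of all tested genes called, 3.82% higher and 4.24% lower, and were not tested against it. With the block 15.2% of all genes were called in this comparison, and without experiment 2 19.3%. Of 5 tested ligands of the EGF receptor, whose signal reaches FOS genes through the MAP kinases, 4 rose and none fell. These were EREG (log2 fold-change 2.13, edgeR adjusted p = 0.00727), BTC (1.72, 0.00405), HBEGF (1.70, 0.00224) and AREG (0.77, 0.0466). EREG went from 11.3 to 37.5 CPM in controls to 57.8 to 161 CPM in exposed libraries, and BTC stayed low, at 1.18 to 1.77 CPM after exposure. With the block TGFA was called as well (1.08, edgeR adjusted p = 3.04e-05). The median of the ligands was 1.70, against 0.03 over all genes.

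Of 24 genes of the MAP kinase cascade itself, from EGFR and the RAS genes to the kinases ERK, JNK and p38, none rose (5 had an unadjusted p under 0.05 in either direction) and MAP2K6, a kinase that activates p38, fell by 1.58 on the log2 scale (edgeR adjusted p = 0.0194). The median of this list was 0.03, the same as over all genes at 2 decimals. None of the 7 transcription factors that act on FOS and JUN promoters, such as SRF and CREB1, was called (1 had an unadjusted p under 0.05), and with the block ELK4 was called higher (0.64, edgeR adjusted p = 0.000245).

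Of 14 phosphatases and feedback inhibitors of MAP kinases, 2 rose and 1 fell at 30 µg/cm2. DUSP2, which dephosphorylates MAP kinases in the nucleus, went from 0.0942 to 0.496 CPM in controls to 2.64 to 31.6 CPM, a log2 fold-change of 5.78 ± 0.84 (edgeR adjusted p = 0.000633). DUSP5, a nuclear phosphatase of ERK, rose by 2.23 ± 0.47 (edgeR adjusted p = 0.00774), from 9.42 to 44.1 CPM in controls to 62.7 to 191 CPM. DUSP1, by contrast, which acts on p38 and JNK, fell by 1.07 ± 0.18 (edgeR adjusted p = 0.00222). With the block DUSP6, SPRY4 and SPRED2 were called higher too, at log2 fold-changes of 1.84, 2.31 and 0.74. Without experiment 2 the counts were 5 higher and 3 lower, where 19.3% of all genes were called, with DUSP6 (1.26), SPRY4 (1.89) and DUSP10 (0.65) added to those higher and DUSP4 (-0.80) and SPRY2 (-0.81) to those lower. Among 6 genes of AP-1 mRNA and protein decay, ZFP36L2, which binds AU-rich mRNA, fell by 1.26 (edgeR adjusted p = 0.000401), and with the block ZFP36L1 was called higher (0.98).

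Of 12 tested bZIP proteins that can pair with FOS or JUN proteins, 2 rose and 1 fell at 30 µg/cm2. The small MAF proteins MAFF and MAFG rose by 2.09 and 1.10 on the log2 scale (edgeR adjusted p = 0.000378 and 0.00969), and MAF, near the floor at 0.331 to 1.27 CPM in controls, fell by 2.19 (edgeR adjusted p = 0.0289). Without experiment 2 MAF was not called (-1.15, edgeR adjusted p = 0.132). The list then held 4 genes called higher and 1 lower, where 19.3% of all genes were called. With the block ATF3 (1.37), ATF4 (0.90) and BATF3 (0.89) were called higher and JDP2, which represses AP-1 sites, lower (-0.79). The counts became 5 and 2, where 15.2% of all genes were called. The median of the list was 0.49.

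Of 15 tested genes known as AP-1 targets, 6 rose and 1 fell at 30 µg/cm2. Among them, the chemokine CXCL8 rose by 2.13 on the log2 scale (edgeR adjusted p = 0.00298), the collagenase MMP1 by 1.86 (0.00672), VEGFA by 1.59 (0.000221), TIMP1 by 1.42 (0.0052) and the chromatin protein HMGA1 by 1.20 (0.0193). PLAU, a secreted serine protease, fell by 0.84 (edgeR adjusted p = 0.0309). MMP9, MMP10 and MMP13 were too low to be tested. The targets IL6, CCND1, CD44, MMP3 and PLAUR were not called. IVL, SPRR1A and SPRR1B were not called either, but were too low at 24 h for the test to decide. IVL had 0 to 1 counts per library in controls and 0 after exposure, and SPRR1A had 0 in both groups. SPRR1B had 1 to 16 and 0 to 2 counts, and its call as lower with the block rests on these few counts. These genes remain among the 15 tested and in the median. The median of the list was 0.46. Against 1 µg/cm2 instead of control, 7 of these targets were called higher and none lower, as were 4 ligands, 4 phosphatases or feedback inhibitors and 4 partner proteins, where 7.84% of all genes were called and 3.62% were called higher. The MAP kinase cascade and the decay genes each held 1 gene called higher and 1 lower, and the promoter-binding factors none. Without experiment 2 the partner proteins held 6 called higher and 2 lower, where 17.6% of all genes were called. The targets then held 9 higher, and the ligands and the phosphatases or feedback inhibitors 5 each, with none lower.

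At 1 µg/cm2 for 24 h edgeR called no gene of the 7 lists, and 9 of their 83 tested genes had an unadjusted p under 0.05. With the block SPRY2 (-0.86) was among the list genes called lower. Without experiment 2, 12 list genes were called, all of them lower, where 2.15% of all genes were called. They included 6 of the 14 phosphatases and feedback inhibitors, namely DUSP6 (log2 fold-change -2.07), DUSP5 (-1.65), DUSP4 (-1.37), SPRY4 (-1.31), DUSP1 (-1.06) and SPRY2 (-0.95), and 4 AP-1 targets, among them IL6 (-1.76), CXCL8 (-1.31) and CCND1 (-0.86). The other two were MAP2K3 (-0.71) and ZFP36L1 (-0.61). In experiments 1 and 3 FOS and FOSL1 were thus lower together with feedback genes of the ERK pathway, from 2 libraries a group.

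At 7 d the only list gene called was DUSP10, a phosphatase of p38 and JNK, which fell by 1.25 ± 0.21 (edgeR adjusted p = 0.0306), from 10.1 to 13.4 CPM in controls to 4.65 to 5.57 CPM. With the block, DUSP8 (1.91), which also acts on JNK, and the squamous genes SPRR1A (2.10) and IVL (1.59) were called higher (where 4.39% of all genes were called), and MAP2K6 (-1.40), PLAU (-0.79), ZFP36L2 (-0.63) and CD44 (-0.62) lower. SPRR1A, at 0.418 to 1.35 CPM in controls and 0.838 to 11.3 CPM after exposure, and IVL, at 0.257 to 0.784 and 0.462 to 3.81 CPM, were low and overlapped between the groups. IVL was above the filter's 0.342 CPM in every exposed library but not in every control. It thus passed the filter by way of the exposed libraries, and its call carries no weight. The ligands of the EGF receptor, the partner proteins and the promoter-binding factors held no called gene at 7 d in either fit. Of the epithelial markers KRT5 (-0.93) and TP63 (-0.99), which mark basal cells, fell (edgeR adjusted p = 0.0477 for both), and KRT5 fell by 2.46 at 30 µg/cm2 (edgeR adjusted p = 7.57e-06). The other 6 epithelial markers were not called at 7 d without the block. Among them, the basal keratins KRT14 and KRT17 overlapped between the groups. KRT14 stood at 5.37 to 7.53 CPM in controls and 3.18 to 17.4 CPM after exposure, and KRT17 at 536 to 711 and 462 to 661 CPM.

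**Figure D5:**
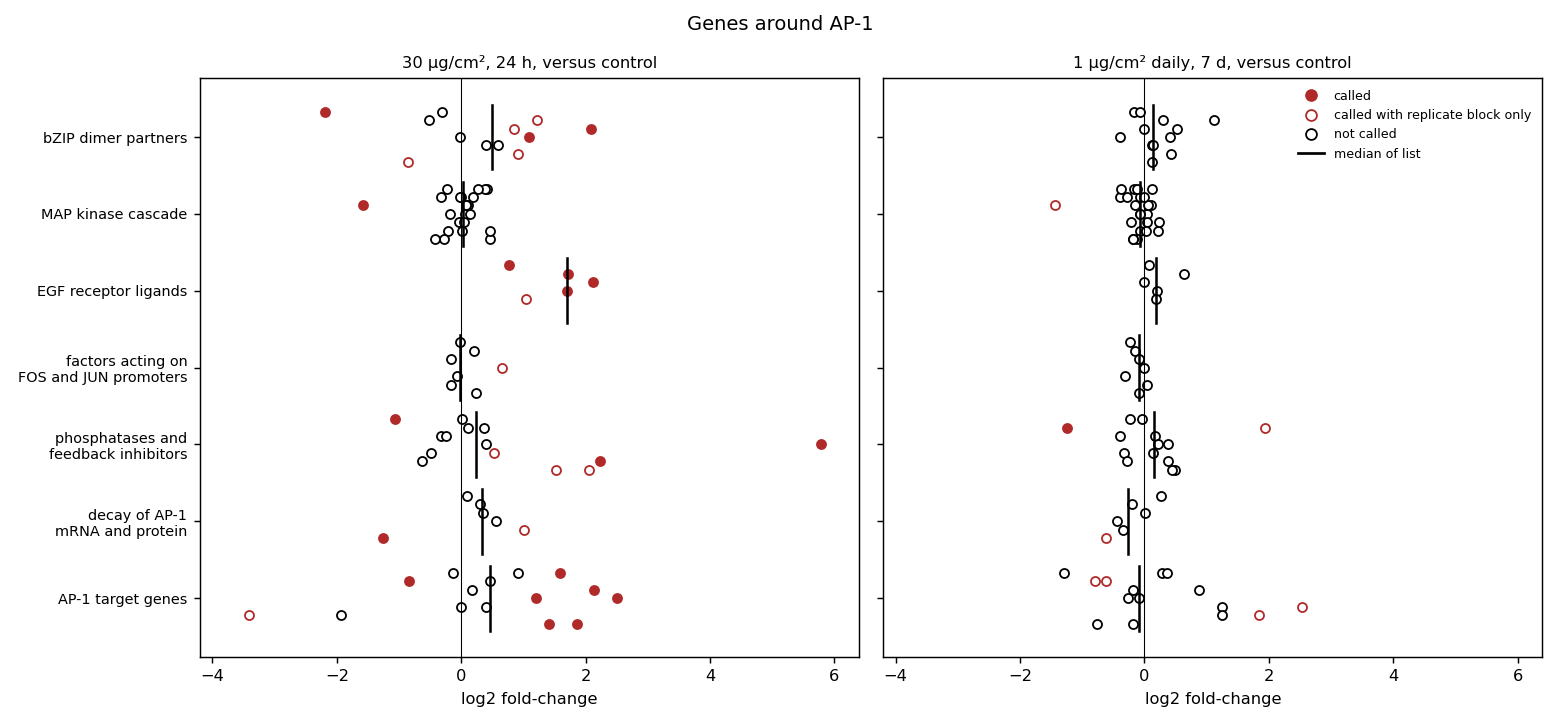
Log2 fold-change (x axis) of each tested gene in the 7 lists (rows) after 30 µg/cm2 at 24 h (left) and 1 µg/cm2 daily for 7 d (right), with a black bar at the median of each list. Filled points were called, red open points were called with the block only, and the point farthest to the right is DUSP2 at 5.78.

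The AP-1 genes did not share a single pattern over the 15 libraries. On log2 CPM, Pearson's r was 0.85 between FOSB and FOSL1, 0.69 between FOSB and JUNB and 0.62 between FOSL1 and JUN. FOSL2 and JUND had r of 0.22 or less with every other member, and FOSL2 had negative r with JUND (-0.52) and JUNB (-0.49). FOSL1 was most like DUSP5 (r = 0.98), LINC02454 (0.98) and EREG (0.98), FOSB like TGIF1 (0.97), SLC30A1 (0.95) and KLF10 (0.94), and FOS like PYROXD1 (0.95), OSBPL6 (0.94) and VPS37A (0.93). Among the JUN genes, JUN was most like CDC25A (0.94), TIGAR (0.93) and CDC6 (0.93), JUNB like YARS1 (0.93), DNAJC18 (0.92) and UPP1 (0.91), and JUND like C9orf40 (0.92), ZNF672 (0.91) and ENSG00000203644.3 (0.91). FOSL2 was most like FOXO3 (0.97), IQGAP1 (0.94) and YOD1 (0.94). The points share conditions and experiments, so these values describe these libraries and carry no test.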

How the data were processed

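RNA of BEAS-2B cells was sequenced with poly-A selection as single-end reads of 50 bases in 15 libraries, 3 per condition, and other assays of the study were not analysed here. Per the study's methods, the authors aligned reads with STAR to GRCh38 and counted them per gene with featureCounts, and the deposited values are counts without normalization. The submitters' processing notes name hg19, but 57370 of 57392 genes (99.96%) overlapped their GENCODE 44 position on GRCh38, so coordinates are given on that build. For the 7-d protocol the labels count 7 daily exposures and the methods 6, with collection on day 7. The annotation and strand setting are not given in the sources used here.

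Counts were analysed with edgeR 4.0.16 in R 4.3.3 and tables made in Python 3.11.15. Genes were kept by filterByExpr (17599), libraries scaled by TMM, and a quasi-likelihood model (legacy mode) with a mean per condition was fitted to all 15 libraries. A call needed a Benjamini-Hochberg adjusted p (over all tested genes) under 0.05 and a log2 fold-change of 0.6 or more in either direction. SEs were derived from the log2 fold-change and the square root of the F statistic. CPM use TMM-scaled totals, and FPKM divides them by the deposited exon length. Depth was 21460981 to 34724765 counts, and floors cover counting error only.

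Experiment numbers come from the labels, and the series record gives them as experimental batches, so comparisons inside 1 protocol were also fitted with these numbers as a replicate block. Deviations from group means correlated at 0.20 to 0.72 (24 h, 9 pairs) and 0.12 to 0.18 (7 d, 3 pairs) between libraries of the same number, and at -0.68 to 0.45 and -0.13 to -0.03 between different numbers.

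Genes and lists were chosen with earlier results of these data known, so they are no independent evidence. Named are the 7 AP-1 genes, list genes that were called (at most 6 per list and comparison without the block), and for each AP-1 gene the 3 tested genes with the highest Pearson r of log2 CPM (prior count 2). Genes named from fits with the block or without experiment 2, and uncalled targets, were added after their values were seen. Some list genes are counted but not reported here by name. Alternatives were RLE or upper-quartile scaling, no filter or a filter at 1 CPM, DESeq2 1.42.0, the likelihood ratio test, the compared libraries alone, the block, no 24-h experiment 2, and each library left out. The fits were tested on simulated data.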

Additional observations from a re-analysis of the deposited data

Results flagged for a closer look

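JUN responded differently to 1 µg/cm2 of PM2.5 in the 7-d and the 24-h protocol when the experiment number was used as a block, and the test of that difference is what marks it for a closer look. The log2 difference of responses was 1.69 ± 0.30 (SE; edgeR quasi-likelihood test, Benjamini-Hochberg adjusted p = 0.044), and without the block it was 1.88 ± 0.65 (edgeR adjusted p = 0.55). With the block, 1.03% of all genes were called in this test. JUN was higher than control in 3 of 3 experiments at 7 d and in 1 of 3 at 24 h, where the exception was experiment 2. At 7 d its log2 ratio was 1.05, 1.19 and 2.33 in experiments 1, 2 and 3, so experiment 3 gave the largest. The exposed library of that experiment also stood apart from the other exposed libraries over all genes. The controls themselves stood at 17.7 to 62.1 CPM at 24 h and 24.5 to 29.6 CPM at 7 d.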

How the results depend on the processing

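Under the other scalings, filters, tools and fits, 286 of 323 member log2 fold-changes kept direction and side of the threshold, 23 became called, 6 lost their call and 8 changed sign, none of these called. The sign changes were FOSB at 1 µg/cm2 (0.00925 with the compared groups alone, 0.0196 with upper-quartile scaling, 0.0991 without 24-h experiment 2), FOSL2 at 1 µg/cm2 (0.0039 with upper-quartile scaling, 0.0319 without experiment 2), FOSL2 between the controls (0.0062 with no filter, 0.000432 with upper-quartile scaling) and JUND at 30 µg/cm2 (-0.179 without experiment 2). The cause was not tested.

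Members called with the compared groups alone numbered 1 for 30 µg/cm2 against control, 1 for 30 against 1 µg/cm2, 2 at 7 d and 2 between the controls. Without experiment 2 they numbered 2 at 1 µg/cm2, 4 for the difference of responses and 2 between the controls. At 7 d, DESeq2, no filter and the block each gave 2, and for the difference of responses no filter and the block each gave 1.

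Genes called at 30 µg/cm2 against control numbered 344 with the groups alone, 2681 with the block and 3389 without experiment 2, and against 1 µg/cm2 123, 2737 and 3091. At 1 µg/cm2 they numbered 39 with DESeq2, 34 with the likelihood ratio test, 38 with no filter, 2 with the groups alone, 74 with the block and 378 without experiment 2. At 7 d they numbered 250, 92, 1044 and 773 with DESeq2, no filter, the groups alone and the block. For the difference of responses they numbered 75, 20, 1, 181 and 1762 with DESeq2, no filter, the groups alone, the block and without experiment 2. The replicate block changed no call of a member other than those of JUN and JUND given above, and the controls of both protocols share no experiment.

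With each library left out, members called ranged from 2 to 4 for 30 µg/cm2 against control and against 1 µg/cm2, from 1 to 2 between the controls, and were 0 to 0 elsewhere. Genes called ranged from 802 to 2691, 716 to 2700, 4 to 55 (1 µg/cm2), 0 to 11 (7 d), 0 to 68 (difference of responses) and 2800 to 4037 (controls). Log2 fold-changes that changed sign ranged, at 1 µg/cm2, from -0.0935 to 0.0712 (FOSB), -0.18 to 0.18 (FOSL2) and -0.65 to 0.0222 (JUN). At 7 d they ranged from -0.0435 to 0.24 (FOS), -0.44 to 0.0899 (FOSB) and -0.12 to 0.0153 (JUNB). For JUND they ranged from -0.24 to 0.32 at 30 µg/cm2 and -0.55 to 0.0281 against 1 µg/cm2, for FOSL2 from -0.16 to 0.12 between the controls, and for the difference of responses from -0.45 to 0.0848 (FOSB) and -0.36 to 0.0016 (FOSL2).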

Other observations

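Genes around AP-1 also differed between the unexposed cells of both protocols, and time, density and medium changes cannot be told apart here. The squamous gene SPRR1A had 13 to 43 counts per library in the 7-d controls and 0 in every 24-h control, and IVL had 7 to 25 and 0 to 1. Both passed the filter on low counts through the 7-d libraries alone, so their calls carry no weight. SPRR1B had 89 to 178 counts in the 7-d and 1 to 16 in the 24-h controls. CCND1 was lower in the 7-d controls by a log2 fold-change of -2.58, IL6 by -2.02 and TIMP1 by -1.72 (edgeR quasi-likelihood test, Benjamini-Hochberg adjusted p = 0.0212, 0.0025 and 0.000621). Of the 15 tested AP-1 targets, 4 (SPRR1A and IVL included) were called higher and 5 lower, where 11.1% of all genes were called higher and 10.8% lower. Of the 14 phosphatases and feedback inhibitors, 2 were higher, among them DUSP10 (1.49), and 5 lower, among them DUSP5 (-1.90) and DUSP8 (-1.72). Without 24-h experiment 2 the counts were 4 higher and 6 lower for the targets and 2 higher and 7 lower for the phosphatases and feedback inhibitors, where 31.3% of all genes were called.

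Of the EGF receptor ligands, BTC and HBEGF were higher in the 7-d controls (log2 fold-changes 1.59 and 0.90) and EREG lower (-1.34). Of the epithelial markers, CDH1 (1.36), TP63 (1.21) and EPCAM (1.17) were higher and KRT18 (-1.35) and KRT8 (-0.79) lower. FOSL1 was the only AP-1 gene called in this comparison.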
